A study of Mus musculus with 6 samples.

Results

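Interferon-stimulated genes (ISGs) are the genes whose transcription rises when a cell senses an interferon, and 42 mouse ISGs were examined here in bone marrow-derived mast cells (BMMCs) that had received no stimulus. The members were taken as a list of gene symbols that covers transcription factors of the pathway, the ISG15 system, the IFIT, OAS, GBP and IRG families, antiviral effectors and other interferon response genes. The rule names genes by symbol. All 42 were found among the 35297 genes of the tables, on 15 chromosomes, and 32 of them were among the 12461 genes with enough reads for the test.

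BMMCs are mast cells grown from bone marrow progenitors, here under stem cell factor, TGF-β1, IL-3 and IL-9. The marrow donors were naive wild-type mice of the strains BALB/c or C57BL/6, and RNA was taken on day 20. No allele, agent or stimulus differed between the groups other than the strain. BALB/c BMMCs were sequenced as libraries S9, S10 and S11, and C57BL/6 BMMCs as libraries S12, S13 and S14. A table legend of the study describes the RNA sequencing as 3 biological replicates. The purity check of the study was flow cytometry for c-Kit and FcεRI. The methods describe the treated mice of the study as young females and do not give sex or age for the marrow donors.

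Type I interferons bind IFNAR1 and IFNAR2, and the kinases JAK1 and TYK2 then act on STAT proteins, which join IRF9 to form the complex ISGF3. ISGF3 binds the interferon-stimulated response element (ISRE) of its target genes. Type II interferon signals through IFNGR1, IFNGR2, JAK1 and JAK2 to STAT dimers, which bind the gamma-activated sequence (GAS), and many GTPase genes of the GBP and IRG families respond to this arm. Many ISGs also have a basal level in resting cells, and mast cells are tissue-resident cells that carry sensors for viral nucleic acids.

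The libraries held between 28273365 and 37100869 reads on genes. The mast cell markers fixed for the check were present in all 6 libraries, with Kit between 471 and 546 TPM (reads per transcript length, scaled to 1 total for all libraries) and Fcer1a between 5253 and 5619 TPM. Over the 10 mast cell markers the summed level lay between 34930 and 39040 TPM for BALB/c libraries and between 34360 and 37640 TPM for those of C57BL/6. By more than 2-fold at an adjusted p under 0.05, 2 of the 10 were higher in C57BL/6 (Hdc and Tpsb2) and 1 was lower (Mcpt4). Of all genes tested, 7.73% were higher and 5.54% lower. By the adjusted p alone 5 markers were higher and 3 lower, where 27.0% and 25.9% of all genes were. TPM is used below to compare genes with each other. CPM (reads scaled to library size after TMM correction) is used to compare the strains. Log2 fold changes are C57BL/6 over BALB/c, with the standard error (SE), from edgeR's quasi-likelihood test, and every adjusted p given is from this test with Benjamini-Hochberg adjustment over the 12461 genes.

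The sequences upstream of 6 members are shown as examples of the element by which ISGs are commonly recognised. They were taken because they hold a match, from the members past both thresholds and the one with the highest level. Of the other members past both thresholds, Ifih1 and Ifit2 had an entry without an ISRE-like match, and Zbp1 had no entry. Each line gives the 150 bases before the annotated start, 5′ to 3′ on the strand of the gene, from RefSeq on build GRCm38.p6. Capitals mark an ISRE-like match, GAAANNGAAA on either strand, where N is any base.
Rsad2: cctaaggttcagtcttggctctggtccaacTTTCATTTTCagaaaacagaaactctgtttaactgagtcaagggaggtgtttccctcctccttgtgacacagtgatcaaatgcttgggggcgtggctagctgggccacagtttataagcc
Oas3: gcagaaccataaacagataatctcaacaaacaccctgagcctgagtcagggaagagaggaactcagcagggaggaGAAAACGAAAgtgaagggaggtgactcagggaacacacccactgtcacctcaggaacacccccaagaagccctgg
Gbp2: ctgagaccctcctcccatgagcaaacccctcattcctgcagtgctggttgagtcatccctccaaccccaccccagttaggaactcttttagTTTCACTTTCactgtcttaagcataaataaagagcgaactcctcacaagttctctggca
Gbp3: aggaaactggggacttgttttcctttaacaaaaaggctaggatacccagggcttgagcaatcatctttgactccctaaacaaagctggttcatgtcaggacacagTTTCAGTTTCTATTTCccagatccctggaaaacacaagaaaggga
Irgm2: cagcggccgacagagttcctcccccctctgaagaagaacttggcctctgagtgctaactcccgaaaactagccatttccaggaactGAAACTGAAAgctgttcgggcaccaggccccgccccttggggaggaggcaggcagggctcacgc
Ifitm2: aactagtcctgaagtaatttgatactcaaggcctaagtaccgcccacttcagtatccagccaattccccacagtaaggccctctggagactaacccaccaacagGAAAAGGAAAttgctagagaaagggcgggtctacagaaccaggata
These bases are of the C57BL/6J reference, and no BALB/c sequence was used. The windows lie on the minus strand of chr12:26456453-26456602 for Rsad2, chr5:120777660-120777809 for Oas3 and chr7:140955962-140956111 for Ifitm2. Those on the plus strand are chr3:142620513-142620662 for Gbp2, chr3:142559894-142560043 for Gbp3 and chr11:58214827-58214976 for Irgm2. The match began 120 bases before the start in Rsad2, 75 in Oas3, 59 in Gbp2, 64 in Irgm2 and 46 in Ifitm2. In Gbp3 a pair of overlapping matches began 45 and 39 bases before the start. Of the 42 members, 32 had an entry in the table of upstream sequences. An ISRE-like match within 250 bases before the start was found in 17 of these 32 (53.1%), against 936 of all 27025 genes in the table (3.46%). By the strain comparison given below, the match was present in 4 of 5 members that were higher, 1 of 2 that were lower, 9 of 20 tested without a call and 3 of 5 not tested. A GAS-like match, TTCNNNGAA, which reads the same on both strands, was found in 9 of the 32 (28.1%), against 2197 of 27025 genes (8.13%). Among the members an ISRE-like and a GAS-like match overlapped in Bst2 alone, and neither match says that a factor binds there.

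**Figure D1:**
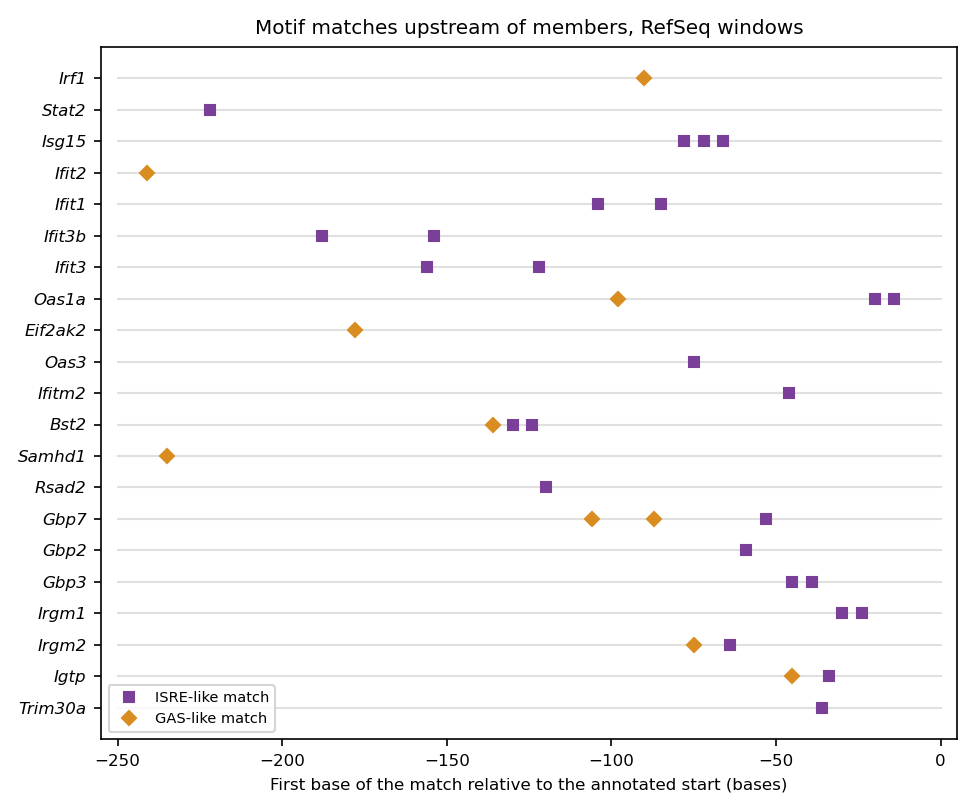
Position of each ISRE-like (squares) and GAS-like (diamonds) match in the 250 bases before the annotated start, in bases on the x axis, for the 21 members with at least 1 match. ISRE-like matches of the called genes Rsad2, Oas3, Gbp2, Gbp3 and Irgm2 lie between 120 and 39 bases before the start.

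Among the members that passed the filter, 6 were higher in C57BL/6 BMMCs by more than 2-fold at an adjusted p under 0.05 (Zbp1, Rsad2, Oas3, Ifih1, Gbp3 and Gbp2) and 2 were lower (Irgm2 and Ifit2). Of all genes tested, 7.73% were higher and 5.54% were lower by the same thresholds. Zbp1 and Oas3 had under 10 reads in each BALB/c library and passed the filter through the C57BL/6 libraries, where they were high. A gene that enters the test in this way had to differ, so these 2 of the 6 are given as a description, without a p. The other 24 members tested did not pass both thresholds. By the adjusted p alone, 22 members were higher and 7 were lower, where 27.0% and 25.9% of all genes were, and 3 were neither (Irf7, Usp18 and Parp9). Log2 fold changes of the members ran from -1.48 to 4.36 with a median of 0.34, beside a median of -0.01 over all genes tested. For 29 of the 32 members, Zbp1 and Oas3 included, the strains did not overlap in CPM, and for 61.9% of all genes tested. An exact permutation test (two-sided) of a single gene in 3 against 3 libraries cannot go below p = 0.1, which is the value Rsad2 gave.

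**Figure D2:**
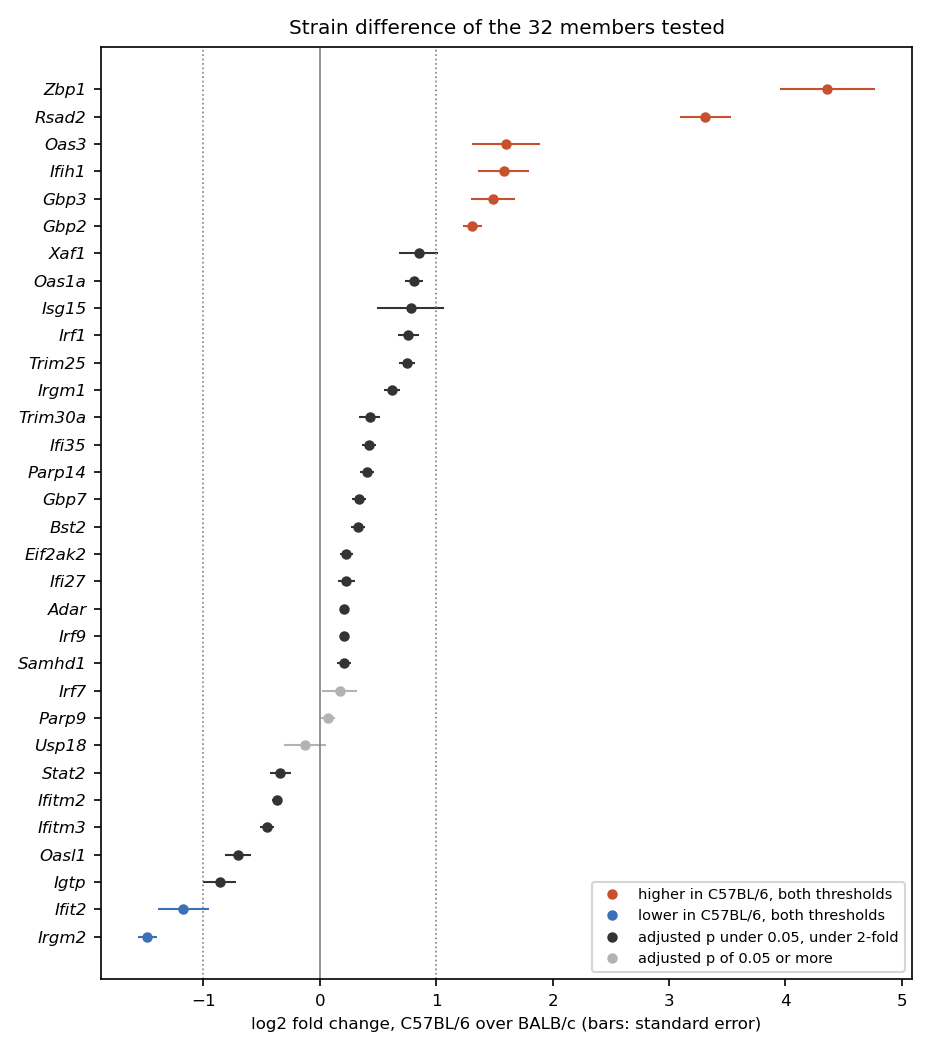
Log2 fold change (C57BL/6 over BALB/c, x axis) of the 32 members tested, with bars of 1 standard error; dotted lines mark a 2-fold difference. Zbp1 at 4.36 and Rsad2 at 3.31 lie far to the right of the other members, and Irgm2 at -1.48 is the lowest.

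The level of the members spanned several orders of magnitude. On average, 26 members were over 1 TPM in both strains, 10 of them over 10 TPM in both, 12 were under 1 TPM in both, and 4 were over 1 TPM in one strain only. Ifitm2 had the highest level, with 2974, 3117 and 2954 TPM in the BALB/c libraries and 2113, 2014 and 2050 TPM in the C57BL/6 libraries. IFITM proteins sit in membranes and block the entry of enveloped viruses. Ifitm3 followed with 457, 495 and 494 TPM in BALB/c and 332, 311 and 292 TPM in C57BL/6. Bst2, which encodes tetherin, a protein that holds budding virions at the cell surface, had 77.9, 82.1 and 85.6 TPM against 88.9, 91.5 and 91.6 TPM. Ifi27, which encodes a small mitochondrial protein, had 58.5, 64.3 and 62.4 TPM in BALB/c and 66.4, 66.7 and 58.8 TPM in C57BL/6. Ifi35, which encodes a partner of NMI, had 24.9, 23.2 and 24.8 TPM against 29.9, 28.9 and 27.4 TPM. The libraries of both strains overlapped in TPM for Ifi27 and were apart for the other 4, Ifitm2 and Ifitm3 with BALB/c above C57BL/6 and Bst2 and Ifi35 the other way round. The order of the 5 genes was the same in all 6 libraries.

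The summed level of the 42 members was 3770, 3971 and 3799 TPM in BALB/c (3847 ± 108, SD, n = 3) and 2833, 2704 and 2716 TPM in C57BL/6 (2751 ± 71.3, SD, n = 3). Ifitm2 and Ifitm3 made up between 86.0% and 91.0% of this sum, so it describes those genes. Without them, the other 40 members summed to 339, 358 and 351 TPM in BALB/c (349 ± 9.75, SD, n = 3) and to 388, 379 and 374 TPM in C57BL/6 (380.4 ± 7.25, SD, n = 3). The sums of both sets did not overlap between the strains, with BALB/c higher for all 42 and C57BL/6 higher for the 40.

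**Figure D3:**
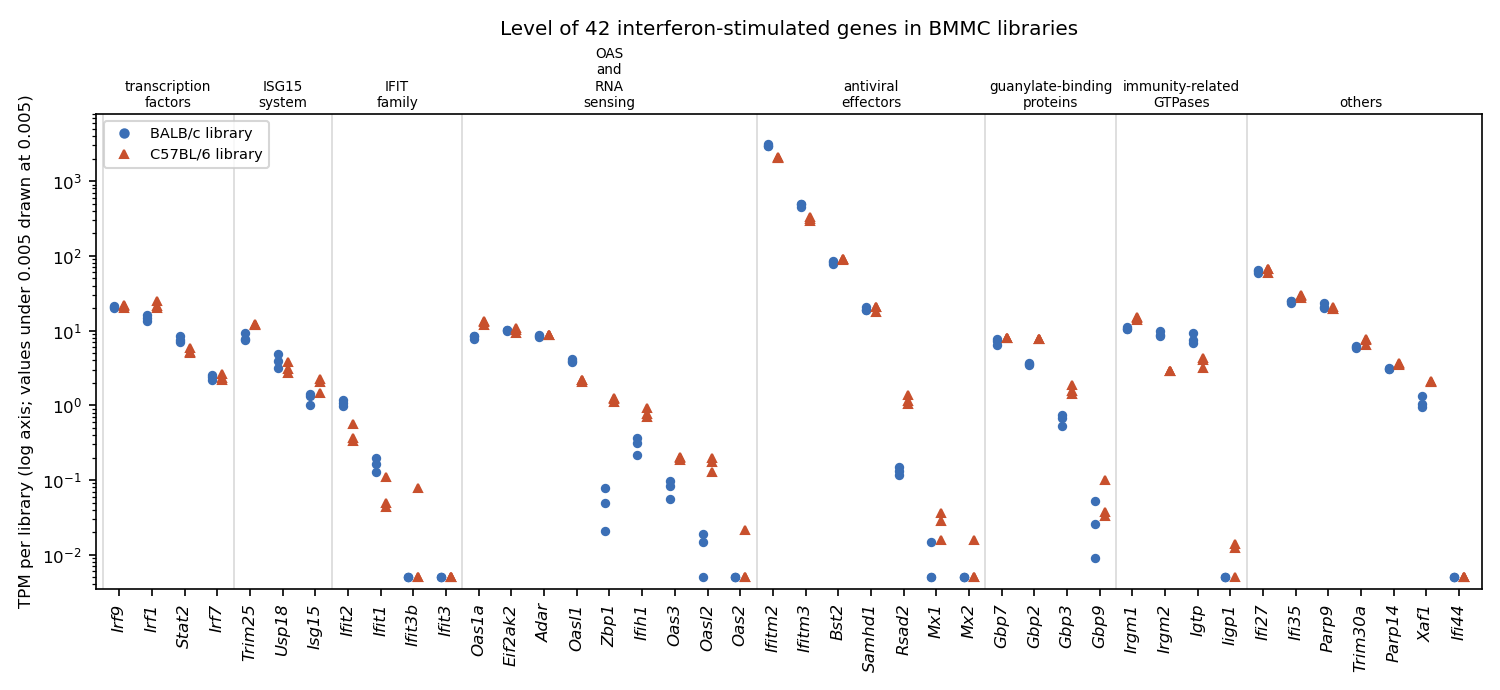
TPM of each member in each of the 6 libraries (log axis; values under 0.005 are drawn at 0.005), ordered by role and by level, with BALB/c libraries as circles and C57BL/6 libraries as triangles. Ifitm2 stands highest at 2014 to 3117 TPM, and Ifit3 and Ifi44 are at 0 in all 6 libraries.

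Of the 4 transcription factors, none passed both thresholds. Irf1, which encodes a factor that acts on ISREs in response to interferon gamma and other signals, had 579, 661 and 781 reads in BALB/c and 1213, 931 and 1115 reads in C57BL/6. Its level was 13.3, 16.1 and 14.8 TPM against 24.8, 21.4 and 20.2 TPM, and the log2 fold change was 0.76 (SE 0.09, adjusted p = 9.72e-05). Irf1 was thus higher in every C57BL/6 library than in any BALB/c library, but by less than 2-fold. Irf9, the DNA-binding part of ISGF3, had 20.4, 21.1 and 20.0 TPM in BALB/c and 21.7, 20.1 and 21.4 TPM in C57BL/6, and its log2 fold change was 0.21 (SE 0.04, adjusted p = 0.00332). The strains overlapped in TPM for Irf9 and were apart in CPM, and the call was lost with plain library sizes and on the TPM scale. Stat2, which encodes a part of ISGF3, had 7.01, 8.54 and 7.54 TPM against 5.86, 5.04 and 5.23 TPM and was lower in C57BL/6 by the adjusted p alone (-0.34, SE 0.09, adjusted p = 0.0084). Irf7, which drives the amplification of the type I interferon response, had 2.55, 2.36 and 2.18 TPM in BALB/c and 2.21, 2.60 and 2.28 TPM in C57BL/6, with overlapping libraries and a log2 fold change of 0.17 (SE 0.15, adjusted p = 0.35).

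In the ISG15 system, Isg15 encodes a ubiquitin-like modifier, Usp18 the protease that removes it and also restrains IFNAR signalling, and Trim25 a ligase that acts on RIG-I. None of the 3 passed both thresholds. Trim25 was higher in C57BL/6 by the adjusted p alone, with 51.9 ± 1.05 CPM (SD, n = 3) against 30.9 ± 3.22 CPM (SD, n = 3) in BALB/c and a log2 fold change of 0.75 (SE 0.07, adjusted p = 2.06e-05). Isg15 had few reads, 13, 16 and 22 in the BALB/c libraries against 21, 29 and 33 in those of C57BL/6. Its adjusted p of 0.0455 (log2 fold change 0.78, SE 0.29) lay close to the threshold and ranged from 0.0281 to 0.195 over the alternatives, with the call lost without any one library but S12 (0.0661 to 0.15, at log2 fold changes of 0.64 to 0.90). Usp18 overlapped between the strains (-0.13, SE 0.18, adjusted p = 0.554).

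The IFIT proteins bind viral RNA that lacks the host's cap methylation, and their genes are among the most responsive to type I interferon. Ifit2 was the member of the family with reads enough for the test, with 100, 86 and 100 reads in BALB/c and 31, 31 and 60 reads in C57BL/6. It was lower in C57BL/6, at 1.27 ± 0.378 CPM against 2.90 ± 0.241 CPM (SD, n = 3 each; log2 fold change -1.17, SE 0.22, adjusted p = 0.00171). All 3 C57BL/6 libraries were below all 3 BALB/c libraries, with S14 nearer to BALB/c than S12 and S13. Ifit1 had 7, 10 and 11 reads in BALB/c and 3, 6 and 3 reads in C57BL/6 and was not tested. Ifit3 had 0 reads in every library, and Ifit3b had 3 reads in S13 and 0 elsewhere. The coding parts of Ifit3 and Ifit3b share 78.3% of their words of 31 bases, so reads could fit either gene. A count of 0 allows up to 3 reads per library. Ifit1, Ifit3 and Ifit3b each had a pair of ISRE-like matches upstream in the reference, and Ifit2 had none there and 1 GAS-like match. Ifit2 lies at chr19:34527932-34554524 on the plus strand of GRCm39.

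In the OAS and RNA-sensing group, Ifih1 passed both thresholds and was higher in C57BL/6. Zbp1 and Oas3, which entered the test through C57BL/6, are described by their values. Zbp1 encodes a sensor of Z-form nucleic acids that can start necroptosis. It had 2, 1 and 1 reads in BALB/c and 33, 21 and 32 reads in C57BL/6, that is 0.0410 ± 0.0192 CPM against 0.904 ± 0.128 CPM (SD, n = 3 each). Nearly all of its reads were thus in the C57BL/6 libraries, and the ratio of the summed reads, scaled to library size, was 22.6 (exact 95% interval 8.51 to 84.8, counting error only). The fitted log2 fold change of 4.36 (SE 0.41) depends on the prior count at so few reads, and with 10 counts asked of every library Zbp1 was not tested.

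Ifih1 encodes MDA5, the sensor of long double-stranded RNA. Its reads were 44, 24 and 45 in BALB/c against 102, 109 and 106 in C57BL/6, and it was higher in C57BL/6, at 3.41 ± 0.549 CPM against 1.13 ± 0.295 CPM (SD, n = 3 each; log2 fold change 1.58, SE 0.22, adjusted p = 0.000309). Oas3 encodes an oligoadenylate synthetase, which makes the activator of RNase L. It had 6, 8 and 9 reads against 23, 20 and 24 reads, or 0.232 ± 0.0405 CPM against 0.712 ± 0.0313 CPM (SD, n = 3 each; log2 fold change 1.60, SE 0.29). For Ifih1 the strains were apart in every library. Those of Oas3 had to be apart, since it entered the test through the C57BL/6 libraries. The values of Oas3 rested on at most 24 reads in a library, and it left the calls with curated transcripts alone, at a log2 fold change of 2.25.

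Zbp1 and Ifih1 both lie on chromosome 2, at chr2:173033815-173060724 and chr2:62425714-62476607, and Oas3 at chr5:120891163-120915729, all on the minus strand of GRCm39. Within the group, Oas1a was higher by the adjusted p alone (13.8 ± 0.80 CPM against 7.86 ± 0.360 CPM, SD, n = 3 each; log2 fold change 0.81, SE 0.08, adjusted p = 3.96e-05). The coding part of Oas1a shares 60.7% of its words with Oas1g, which had 1 read in all libraries together, and its call was lost with curated transcripts alone at a log2 fold change of 1.08 (adjusted p = 0.452 by edgeR's quasi-likelihood test). Oasl1, which encodes an OAS-like protein without synthetase activity, went the other way (3.38 ± 0.0928 CPM against 5.47 ± 0.451 CPM, SD, n = 3 each; log2 fold change -0.70, SE 0.11, adjusted p = 0.000775). Eif2ak2, which encodes PKR, and Adar, which encodes an RNA-editing enzyme, were abundant and close between the strains, with log2 fold changes of 0.23 (adjusted p = 0.0155) and 0.21 (adjusted p = 0.00285). Both calls were lost with plain library sizes (0.09 and 0.07) and on the TPM scale (-0.02 and 0.03), that of Eif2ak2 also with curated transcripts alone (0.01, adjusted p = 0.938), without S10 (0.20, adjusted p = 0.0528) or S12 (0.16, adjusted p = 0.0542). Oasl2 was not tested, with 0, 1 and 1 reads in BALB/c and 12, 11 and 9 reads in C57BL/6. Its ratio of summed reads was 16.8 (exact 95% interval 4.29 to 145, counting error only), and it passed both thresholds where no filter was set (3.85, adjusted p = 0.000833 by edgeR's quasi-likelihood test). Oas2 had 2 reads in S12 and 0 in the other libraries.

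Among the 7 antiviral effectors, Rsad2 alone passed both thresholds. It encodes viperin, a radical SAM enzyme that makes a chain-terminating nucleotide. It had 12, 9 and 13 reads in BALB/c and 95, 110 and 116 reads in C57BL/6, or 0.342 ± 0.0377 CPM against 3.44 ± 0.564 CPM (SD, n = 3 each; log2 fold change 3.31, SE 0.22, adjusted p = 2.75e-06). On the level scale Rsad2 stood between 0.12 and 0.15 TPM in the BALB/c libraries and between 1.05 and 1.37 TPM in the others. It lies at chr12:26492745-26506451 on the minus strand of GRCm39. The neighbouring gene Cmpk2, an ISG outside the list that encodes a nucleotide kinase, had 2, 5 and 2 reads in BALB/c and 31, 11 and 21 reads in C57BL/6 (log2 fold change 2.81, SE 0.53; 3.44 without S10 and 7.42 with curated transcripts alone). Cmpk2 entered the test through the C57BL/6 libraries and is given as a description.

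Ifitm2 and Ifitm3 were lower in C57BL/6 by the adjusted p alone, at 750.2 ± 6.52 CPM against 966 ± 30.7 CPM for Ifitm2 (log2 fold change -0.37, SE 0.04, adjusted p = 2.9e-05) and 116.5 ± 6.74 CPM against 159 ± 9.36 CPM for Ifitm3 (log2 fold change -0.45, SE 0.06, adjusted p = 0.000182), each SD with n = 3. With the related gene Ifitm1 added, the summed reads kept the direction, at -0.27 (adjusted p = 0.000361). Ifitm1 holds 724036 of these reads over all libraries, Ifitm2 166617 and Ifitm3 26747. The sum thus follows Ifitm1, which was at -0.25, and does not bear on the calls of Ifitm2 and Ifitm3. Bst2 was higher by the adjusted p alone (0.33, SE 0.06, adjusted p = 0.000928). Samhd1, which encodes a dNTP hydrolase, was 56.0 ± 4.03 CPM against 48.6 ± 2.51 CPM (SD, n = 3 each; log2 fold change 0.21, adjusted p = 0.0186), a call lost with plain library sizes (0.06), on the TPM scale (0.01) and without S9, S11, S12 or S14 (0.17 to 0.20, adjusted p from 0.0516 to 0.0729). The dynamin-like GTPase genes Mx1 and Mx2 had at most 2 and 1 reads in a library. The gene table lists both as transcribed pseudogenes.

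**Figure D4:**
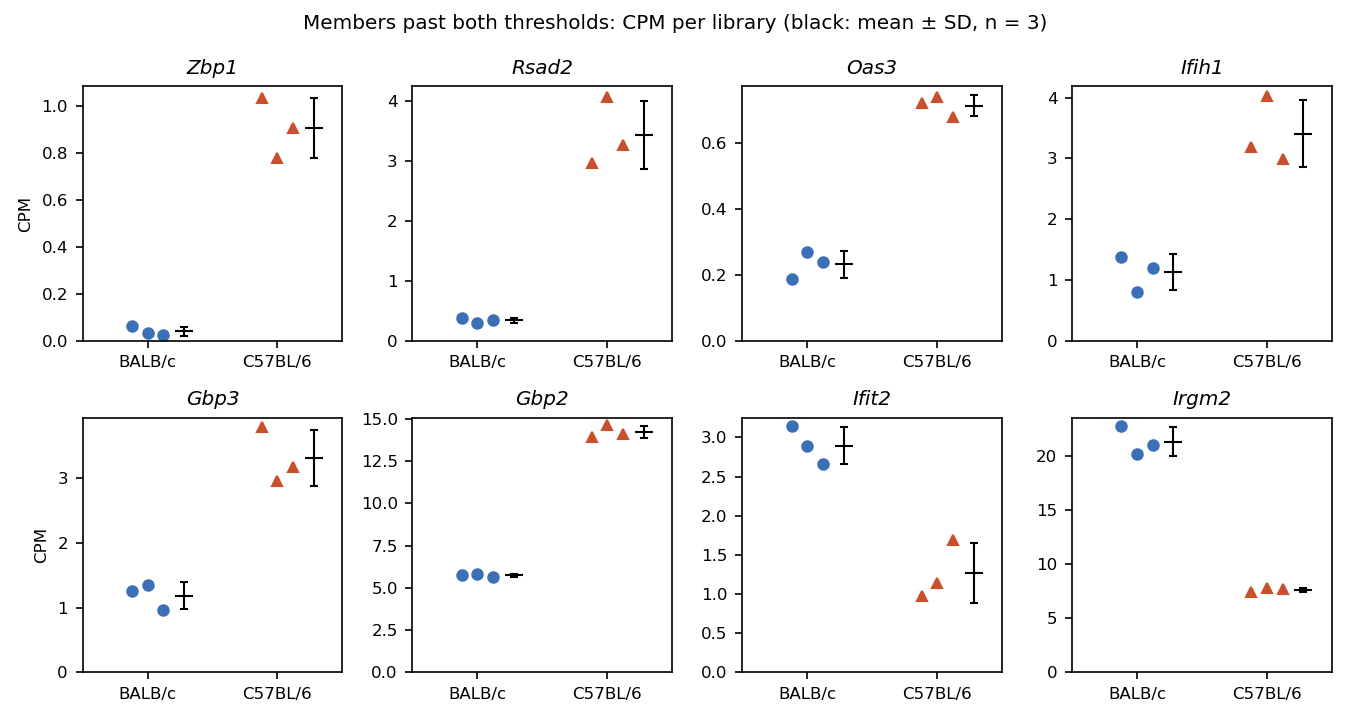
CPM in each library (y axes start at 0) of the 8 members past both thresholds, with black bars for the mean and SD of 3 libraries per strain. The strains do not overlap in any panel, which the filter had fixed for Zbp1 and Oas3. Zbp1 goes from 0.0410 to 0.904 CPM on average and Irgm2 from 21.3 to 7.65 CPM.

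Guanylate-binding proteins (GBPs) are GTPases that attack the vacuoles of intracellular pathogens. Gbp2 had 184, 173 and 213 reads in BALB/c and 446, 396 and 499 reads in C57BL/6, or 5.75 ± 0.0737 CPM against 14.2 ± 0.359 CPM (SD, n = 3 each; log2 fold change 1.31, SE 0.08, adjusted p = 1.21e-06). Gbp3 had 40, 40 and 36 reads against 121, 80 and 112 reads, or 1.19 ± 0.202 CPM against 3.30 ± 0.432 CPM (SD, n = 3 each; log2 fold change 1.49, SE 0.19, adjusted p = 0.000173). Both were higher in every C57BL/6 library than in any BALB/c library. Gbp7 was the most abundant of the 4, with 940, 818 and 943 reads in BALB/c and 1077, 957 and 1235 reads in C57BL/6, and was higher by the adjusted p alone (0.34, SE 0.06, adjusted p = 0.00174), a call lost on the TPM scale (0.15 and 0.16). Gbp9 had between 1 and 10 reads in a library and was not tested.

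GBP genes are similar in sequence, and the call of Gbp2 did not hold when reads of Gbp2b were added. Gbp2b, whose coding part shares 6.7% of the words with Gbp2, had 150, 142 and 153 reads in BALB/c and 0 in all 3 C57BL/6 libraries, and was at least 46.8-fold lower in C57BL/6 against a floor of 3 reads per library. The reads of Gbp2 and Gbp2b together were 334, 315 and 366 in BALB/c against 446, 396 and 499 in C57BL/6, a log2 fold change of 0.47 (adjusted p = 0.000594). The reads of Gbp3 and Gbp7, which also share coding words, came to 980, 858 and 979 against 1198, 1038 and 1347, a log2 fold change of 0.41 (adjusted p = 0.000508). Gbp7 holds 5971 of these reads over all libraries and Gbp3 429, so this sum follows Gbp7 and does not bear on the call of Gbp3. How Salmon split reads between the copies was not tested. On GRCm39, Gbp7 lies at chr3:142236044-142255910, Gbp3 at chr3:142265731-142278979 and Gbp2 at chr3:142326349-142343779, all on the plus strand.

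**Figure D5:**
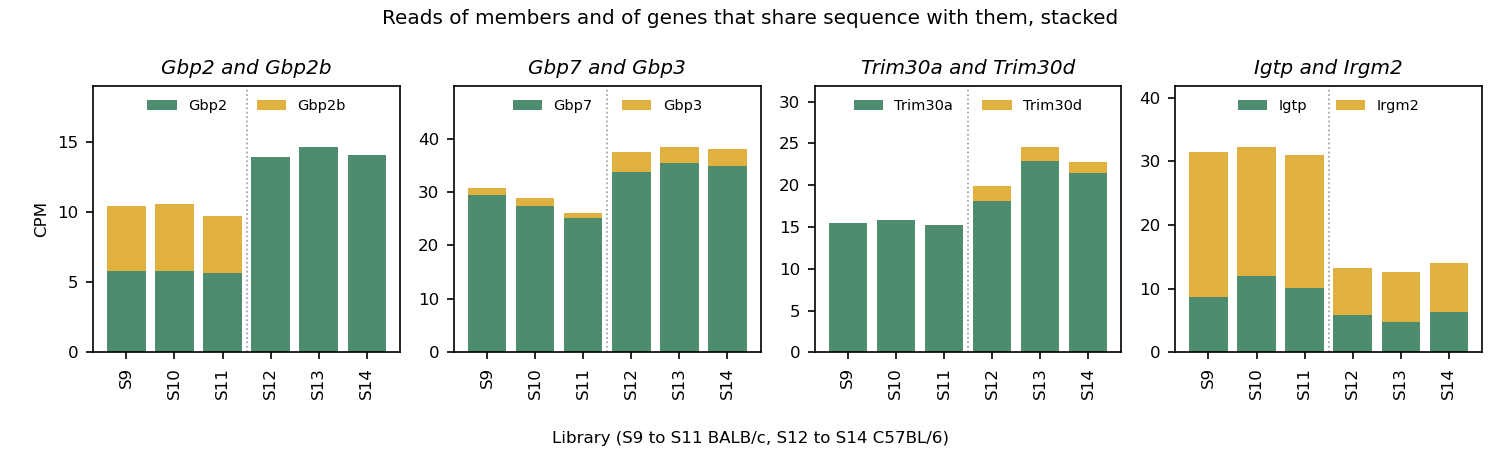
CPM per library (y axes start at 0) of 4 pairs of genes that share sequence, stacked, with BALB/c libraries left of the dotted line and C57BL/6 libraries right of it. In the first panel, Gbp2b is seen in BALB/c only, where it had 142 to 153 reads per library, and the stacks differ less between the strains than Gbp2 does.

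Immunity-related GTPases (IRGs) act on the same vacuoles, and the IRGM proteins regulate the others. Their 3 tested members did not move one way. Irgm2 had 726, 601 and 789 reads in BALB/c and 238, 211 and 273 reads in C57BL/6, and was lower at 7.65 ± 0.183 CPM against 21.3 ± 1.35 CPM (SD, n = 3 each; log2 fold change -1.48, SE 0.08, adjusted p = 5.32e-07). Igtp, which encodes IRGM3, had 277, 358 and 378 reads against 185, 129 and 222 reads, and was lower by the adjusted p alone (-0.86, SE 0.14, adjusted p = 0.000889). Irgm1 was higher by the adjusted p alone, at 23.1 ± 1.44 CPM against 15.01 ± 0.545 CPM (SD, n = 3 each; log2 fold change 0.62, SE 0.07, adjusted p = 7.18e-05). Irgm2 and Igtp overlap on the plus strand of chromosome 11 in GRCm39, at chr11:58090444-58113615 and chr11:58089840-58098417, and share 16.0% of their coding words. Their summed reads were 1003, 959 and 1167 in BALB/c against 423, 340 and 495 in C57BL/6, and the sum passed both thresholds at -1.25 (adjusted p = 3.52e-07). Irgm2 holds 2838 of these reads over all libraries and Igtp 1549. Iigp1 had 1 read in each of S12 and S14 and 0 elsewhere.

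None of the 6 tested members outside these families passed both thresholds, and 5 were higher by the adjusted p alone. Xaf1, which encodes an antagonist of an inhibitor of apoptosis, had the largest difference of them, at 2.52 ± 0.321 CPM against 1.41 ± 0.103 CPM (SD, n = 3 each; log2 fold change 0.85, SE 0.17, adjusted p = 0.00286). It passed 2-fold (1.09) when the fit allowed for transcript length, and lost its call with curated transcripts alone (0.64, adjusted p = 0.148). Trim30a, which encodes a TRIM protein that restrains inflammatory signalling, was at 0.43 (SE 0.09, adjusted p = 0.00311). Ifi35 was at 0.42 (adjusted p = 0.000357), Parp14 at 0.41 (adjusted p = 0.000357, lost on log2(TPM + 0.1) at 0.22) and Ifi27 at 0.23 (adjusted p = 0.0169, lost with plain library sizes at 0.09, on the TPM scale at 0.05 and without S9, S12 or S13 at 0.18 to 0.21, adjusted p 0.0548 to 0.0633). Parp9, which with PARP14 belongs to the family of ADP-ribosyltransferases, was at 0.07 (SE 0.06, adjusted p = 0.4), with overlapping libraries. Ifi44 had 0 reads in all libraries. The 10 members not tested, Ifi44 included, never had more than 12 reads in a library.

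The other genes of the pathway were taken from lists of 119 genes, of which 81 were tested. Of these, 13 were higher in C57BL/6 past both thresholds (16.0%, beside 7.73% of all genes) and 2 were lower (2.47%, beside 5.54%), and the median log2 fold change was 0.19. Of the 13, 6 entered the test through the C57BL/6 libraries (Irf8, Cmpk2, Ifi27l2b, Trim5, Trim30d and Ifngr2), and both lower genes through the BALB/c libraries, so the counts are a description and these genes are given without a p. None of the 20 interferon genes on the list had more than 2 reads in a library, and 16 of them, Ifnb1 among them, had 0 reads in all 6. Of the receptors, Ifnar1 was at 0.10 (SE 0.04, adjusted p = 0.0857), Ifnar2 at -0.10 (SE 0.04, adjusted p = 0.0818) and Ifngr1 at 0.30 (SE 0.06, adjusted p = 0.00219, lost on the TPM scale at 0.12 and 0.13). Ifngr2 had 7, 9 and 11 reads against 13, 20 and 19 reads and reached 1.02 (SE 0.34), and it left the calls in most alternatives (0.18 to 1.09), DESeq2 and the removal of any one library but S12 among them. Il10rb, a subunit shared with the receptor of type III interferons, was at 0.25 (adjusted p = 0.0252), and this call was lost with DESeq2 (0.25), with plain library sizes (0.10), on the TPM scale (0.06 and 0.07) and without S10, S12, S13 or S14 (0.22 to 0.26, adjusted p from 0.0524 to 0.0723). Of the kinases, Jak2 was higher by the adjusted p alone (0.62, SE 0.04, adjusted p = 2.24e-06), Tyk2 was at 0.14 (adjusted p = 0.02, lost without S10, S12 or S14 at 0.10 to 0.13, with the direction turned on the TPM scale, with plain library sizes and with curated transcripts) and Jak1 at 0.09 (adjusted p = 0.414).

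Stat3, a factor of cytokine signalling, was lower in C57BL/6 by the adjusted p alone (-0.32, adjusted p = 8.78e-05). Irf2 was at -0.04 (adjusted p = 0.577) and Irf3 at 0.02 (adjusted p = 0.734). Irf5 and Irf8 are factors known from myeloid cells. Irf8 had 12, 2 and 3 reads in BALB/c and 164, 137 and 232 reads in C57BL/6 (log2 fold change 4.99, SE 0.38; 6.16 without S9). Irf5 passed both thresholds and had 76, 66 and 69 reads against 393, 360 and 427 reads (log2 fold change 2.55, SE 0.12, adjusted p = 2.64e-07). Stat2 and Irf9 thus differed by less than 2-fold between the strains, and Irf5 by more. None of the 8 negative regulators passed both thresholds, and by the adjusted p alone 2 were higher and 3 lower. Of 10 tested sensors and adaptors, 3 were higher and 4 lower by the adjusted p alone, beside 27.0% and 25.9% of all genes. Unc93b1, the chaperone of endosomal Toll-like receptors, passed both thresholds by a small margin (1.02, SE 0.09, adjusted p = 1.53e-05). Its value was under 2-fold with upper-quartile factors (1.0), plain library sizes (0.88), on the TPM scale (0.70 and 0.82) and without S11 (0.97) or S12 (1.0). Ddx58, which encodes RIG-I, was at 0.64 (adjusted p = 3.96e-05) and Traf3 at 0.20 (adjusted p = 0.00896). Those lower were Cgas (-0.62, adjusted p = 0.000225), Ikbke (-0.51, adjusted p = 0.000221), Sting1 (-0.41, adjusted p = 0.000191) and Tbk1 (-0.22, adjusted p = 0.00487), which act in the sensing of cytosolic DNA or in the kinase step after it.

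Of 48 other tested interferon-induced genes, 9 were higher and 2 lower past both thresholds, beside 7.73% and 5.54% of all genes, with 4 of the 9 and both of the 2 among the genes given without a p. Those higher were Trim34a (3.32, adjusted p = 2.64e-08), Ifi27l2b (3.07, 4.0 without S9), Cmpk2, Tgtp2 (1.75, adjusted p = 2.44e-05), Isg20 (1.43, adjusted p = 0.000386), Sp110 (1.43, adjusted p = 1.32e-06), Ifi47 (1.29, adjusted p = 2.74e-06), Trim5 and Trim30d. Tgtp2 and Ifi47 are further IRG genes of chromosome 11, where Irgm2 and Igtp were lower and Irgm1 was higher by the adjusted p alone. Trim5 had 3, 0 and 2 reads in BALB/c and 125, 52 and 224 reads in C57BL/6, a ratio of 84.3 (exact 95% interval 35.8 to 261, counting error only), and its fitted log2 fold change of 6.24 was 6.94 without S9. Trim30d had 0 reads in BALB/c and 56, 43 and 47 reads in C57BL/6, and was at least 17.0-fold higher against a floor of 3 reads per library. It shares 19.2% of coding words with Trim30a, and their sum gave a log2 fold change of 0.53 (adjusted p = 0.000541). The genes lower were Gbp2b and Gbp4, which had 21, 41 and 44 reads against 7, 6 and 9 reads (-2.18, SE 0.36). Summed with Gbp6, Gbp8, Gbp9 and Gbp10, which share coding words with Gbp9 as Gbp4 does, Gbp4 was at -0.95.

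Some markers of other cell types differed between the strains as well. Of the 8 basophil markers 4 were higher past both thresholds in C57BL/6 (Mcpt8, Prss34, Cebpa and Ccl9), beside 7.73% of all genes. By the adjusted p alone Ms4a3 was higher (0.99, adjusted p = 0.0024) and Il18r1 lower (-0.54, adjusted p = 0.00415). Cd200r3 (-0.07) and Itga2 (0.15) had no call. The 8 summed to 515 to 530 TPM in BALB/c and 640 to 668 TPM in C57BL/6. On average Mcpt8 had 178 TPM in BALB/c against 341.5 TPM in C57BL/6, and Cd200r3 339 TPM against 286 TPM. Of the markers called higher, Prss34, Cebpa, Ccl9, Adgre1 and Runx2 entered the test through the C57BL/6 libraries, so the counts in this paragraph are a description. The 8 macrophage markers summed to 0.937 to 1.77 TPM in BALB/c and to 8.34 to 9.72 TPM in C57BL/6, with the 2 that could be tested (Adgre1 and Cd68) higher and C1qa, C1qb, C1qc and Csf1r at 0 reads in every library. The 6 conventional dendritic cell markers summed to 2.91 to 3.08 TPM against 11.8 to 13.1 TPM, with Itgax the one tested and higher, and Clec9a and Cd209a at 0. The 8 plasmacytoid dendritic cell markers summed to 0.947 to 1.64 TPM against 2.54 to 3.29 TPM, with Bcl11a and Runx2 tested and higher, and Siglech and Klk1 at 0. No neutrophil marker had more than 4 reads in a library. Of the T or NK cell markers, Cd3e, Cd3d and Cd3g had 0 reads and Klrb1c at most 2 in a library. Ncr1 had 120 to 204 reads in every library and no call (-0.14, adjusted p = 0.327). The part of these markers in the results for Zbp1, Rsad2, Irf8 and the other genes above was not tested, and in bulk RNA fewer cells of a type and less RNA per cell cannot be told apart.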

How the data were processed

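RNA of BMMCs from day 20 cultures, 3 BALB/c and 3 C57BL/6, was analysed. Per the methods of the study, strand-specific poly(A) libraries were read from both ends. The authors checked reads with FastQC 0.11.5 and assigned them with Salmon 0.8.2, per the submitters' processing notes, and deposited for each transcript an estimated count (expected count, not whole) and its TPM. Salmon's strand setting is not given in the sources used here. Accessions in the deposited tables are of RefSeq, whereas the methods name Ensembl and GRCm39. RefSeq follows the C57BL/6J genome, and the effect of BALB/c variants on read assignment was not tested.

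Accessions without version were matched to genes by a RefSeq table (GRCm38.p6): 106440 of 129698 transcripts matched, giving 35297 genes, and the others, with 2.69% to 3.12% of the reads, were left out. Estimated counts were summed by gene, rounded and tested with edgeR 4.0.16 (R 4.3.3; quasi-likelihood test, TMM, filter at a minimum count of 10, strain as the single term, Benjamini-Hochberg adjustment). Genes were called at an adjusted p under 0.05 and a change over 2-fold. SE came from the fold change and F statistic. At 28273365 to 37100869 reads per library and a biological coefficient of variation of 0.0665, depth limits the genes with few reads. Tested on simulated counts of 12084 genes, edgeR recovered 200 of 200 changes of 4-fold with 0 false calls. The changed genes were drawn from those above a minimum of expected reads, and all genes had the same dispersion. The simulation therefore does not bear on genes with few reads or on changes near 2-fold. Intervals for ratios with at most 3 reads in a library are exact binomial (95%), and the floor is 3 reads per library.

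Shared sequence was measured in words of 31 bases of GENCODE coding parts (GRCm39). Genes sharing at least 5% were summed as an alternative, a limit set after the percentages were seen. Motifs were searched in RefSeq upstream windows (GRCm38.p6), and gene positions are GRCm39. The genes named are all members by role, the other pathway genes past both thresholds, and the tested receptors, kinases, STATs and IRFs; the sensors and adaptors with an adjusted p under 0.05 were added after their values were seen. Some genes that the rule covers are not reported here. Values per library are given for called members, the 5 highest by TPM, transcription factors and members that share sequence with another member. Members and lists were chosen with earlier results of these data known. Alternatives were DESeq2 1.42.0, other normalizations and filters, limma 3.58.1 on log2 TPM with a pseudocount of 1 or 0.1, a length offset, other transcript sets, summed genes and each library left out.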

Additional observations from a re-analysis of the deposited data

How the results depend on the processing

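The numbers of members past both thresholds, 6 higher and 2 lower, became 6 to 7 and 2 to 3 with DESeq2 and with other normalizations of the counts. With each library left out in turn, 6 to 7 were higher and 2 to 3 lower, and the 6 and the 2 were kept each time. By the adjusted p alone, leaving out a library gave 19 to 21 higher and 7 to 8 lower, and 14 to 16 pathway genes past both thresholds. A filter of 10 counts in every library left 3 members higher, since Zbp1, Rsad2 and Oas3 were not tested, and 7 pathway genes instead of 15. On log2(TPM + 1), which understates the change of low genes, 1 member was higher (Zbp1), 1 lower (Irgm2) and 6 pathway genes passed. Summing genes that share sequence left 4 higher, without Gbp2 and Gbp3 (whose sum is mostly Gbp7), and 3 lower. There Igtp and Irgm2 are a single sum (-1.25) counted for both members, and most of its reads are of Irgm2. Igtp on its own passed with plain library sizes (-1.01) and on log2(TPM + 0.1) (-1.03). Oas3 was lost on log2(TPM + 0.1) (0.74). Without C57BL/6 library S13, Ifit1 entered the test through the BALB/c libraries, where it had more reads, and was counted as lower. Its value of -1.62 is given as a description. Plain library sizes moved the median of all genes to -0.15, and 16 members were then higher by the adjusted p alone. The TPM scale moved it to -0.15 with a pseudocount of 1 and to -0.18 with 0.1.

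Directions turned for Eif2ak2 (-0.02 on both TPM scales), Irf3 (-0.13 and -0.14 there), Tyk2 (-0.01 with plain library sizes, -0.03 on both TPM scales, -0.05 with curated transcripts) and Gbp2b (0.47 when summed with Gbp2). The cause was not tested, except that the sum for Gbp2b holds the reads of Gbp2. Of 1047 values of single named genes under the alternatives, 25 had the other sign, most of them for genes without a call, 71 lost an adjusted p under 0.05 and 13 gained it. No paired analysis was possible because the strains share no replicate number.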
